A study of Mus musculus with 12 samples.

Results

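The 10 genes described here, Dusp1, Dusp2, Dusp4, Dusp5, Dusp6, Dusp7, Dusp8, Dusp10, Dusp14 and Dusp16, encode dual-specificity phosphatases that act on MAP kinases. They were chosen by name as a gene family, with earlier results of these data known. The set leaves out Dusp9, which is described below with other DUSP genes. Array probes were assigned to the 10 genes through the transcript accession of each probe. They were covered by 12 probes, and all 10 were among the 26841 genes that entered the tests. Dusp5 entered only through the groups that received 4OHT, since its probe was well above background on 1 of 3 untreated arrays and on 0 of 3 MG132 arrays.

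MAP kinases are switched on by phosphorylation of a threonine and a tyrosine in their activation loop, and these phosphatases remove both phosphates. Several family members are themselves transcribed in response to ERK, JNK or p38 activity, so they form negative feedback loops. Dusp1, Dusp2, Dusp4 and Dusp5 encode inducible nuclear enzymes, Dusp6 and Dusp7 encode cytoplasmic enzymes with a preference for ERK, and Dusp8, Dusp10 and Dusp16 encode enzymes with a preference for JNK and p38. Dusp14 encodes a small enzyme of the atypical class, which lacks the kinase-binding domain of the others. In embryonic stem cells, ERK signalling downstream of fibroblast growth factor receptors favours exit from naive pluripotency.

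RNA of mouse embryonic stem cells was measured on 12 one-colour arrays, in 4 groups of 3 biological replicates. The medium of every group held leukaemia inhibitory factor (LIF) and 250 nM PD173074, which blocks fibroblast growth factor receptors. The groups were untreated cells taken at 0 h, cells given 250 nM 4OHT for 6 h, cells given 1 µM of the proteasome inhibitor MG132 for 30 min and then 6 h, and cells given MG132 for 30 min and then MG132 with 4OHT for 6 h. Hydroxytamoxifen (4OHT) is the ligand commonly used to activate fusions with a mutated oestrogen receptor. The labels name neither a fusion protein nor a vehicle, strain or line. No untreated array was taken at 6 h, so time and compound cannot be told apart in a comparison with untreated cells.

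On each array 49.5% to 63.2% of probes were well above background. Slide 1 held the untreated arrays, the 4OHT arrays and MG132 replicates 1 and 2, and slide 2 held the remaining MG132 array with the 3 arrays of both compounds. Replicates scattered more with 4OHT, where gene values departed from the group mean by 0.39 to 0.45 log2 units (SD per array), than elsewhere (0.19 to 0.30). All 7 pluripotent stem cell markers were well above background on every array. Their summed signal, relative to the 75th percentile of the array, was 814 to 873 on the untreated arrays and 795 to 822 after 4OHT. After MG132 it was 501 to 521, and 471 to 551 after both compounds. The 8 fibroblast and feeder cell markers summed to 1.73 to 2.27 on the untreated arrays and 17.9 to 28.9 after 4OHT. Of 6 measured markers 2 rose with 4OHT (Thy1, 3.73 ± 0.19, and Twist1, 3.24 ± 0.31), Pdgfrb fell and 3 were not called, with a median change of 0.17. The number well above background on all 3 arrays was 6 in untreated cells and 3 with 4OHT. The sum was 3.79 to 4.06 after MG132 and 4.70 to 5.89 after both compounds. Of these, Lum was not well above background in any group and Col3a1 only with both compounds. The part of these shifts in the results was not tested. The 7 primitive endoderm markers summed to between 0.754 and 2.03 over the 12 arrays.

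Promoter sequences were at hand for 9 of the 10 genes (RefSeq, assembly GRCm38.p6). Those of 4 genes are shown, from 250 bases before the start site to the base before it. The 4 are Dusp2 and the genes in which the motifs marked in capitals were found (Dusp1, Dusp5 and Dusp8). Capitals mark a cAMP response element (CRE, TGACGTCA), the site of CREB and ATF factors, or a CArG box, the site of serum response factor. The sequences come from chr17:26508473-26508722 (minus strand, Dusp1), chr2:127335909-127336158 (plus strand, Dusp2), chr19:53528895-53529144 (plus strand, Dusp5) and chr7:142095285-142095534 (minus strand, Dusp8).
Dusp1: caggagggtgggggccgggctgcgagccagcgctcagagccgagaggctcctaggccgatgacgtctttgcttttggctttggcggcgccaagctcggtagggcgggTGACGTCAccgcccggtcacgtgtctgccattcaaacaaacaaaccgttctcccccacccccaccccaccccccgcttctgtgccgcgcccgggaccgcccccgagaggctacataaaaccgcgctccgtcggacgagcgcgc
Dusp2: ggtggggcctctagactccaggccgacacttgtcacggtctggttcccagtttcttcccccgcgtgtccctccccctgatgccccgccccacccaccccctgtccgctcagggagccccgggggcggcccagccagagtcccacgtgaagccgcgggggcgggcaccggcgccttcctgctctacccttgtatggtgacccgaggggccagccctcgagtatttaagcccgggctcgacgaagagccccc
Dusp5: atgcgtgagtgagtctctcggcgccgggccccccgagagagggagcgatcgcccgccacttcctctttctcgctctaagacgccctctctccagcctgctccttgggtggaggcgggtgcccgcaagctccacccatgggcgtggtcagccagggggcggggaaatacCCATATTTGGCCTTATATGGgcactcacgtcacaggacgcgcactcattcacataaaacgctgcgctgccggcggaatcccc
Dusp8: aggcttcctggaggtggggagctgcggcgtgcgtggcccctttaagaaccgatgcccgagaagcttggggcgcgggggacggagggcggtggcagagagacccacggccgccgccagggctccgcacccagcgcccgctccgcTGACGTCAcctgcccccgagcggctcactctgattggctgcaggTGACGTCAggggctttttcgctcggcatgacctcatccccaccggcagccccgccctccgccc

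A search of both strands from 250 bases before to 50 bases after the start site found the CRE in 2 of the 9 promoters. Dusp1 held 1 copy, whose first base lay at -143, and Dusp8 held 2 copies, at -107 and -63. The same letters occurred in 1.79% of the 32851 promoters of this length. CArG boxes were found in Dusp5 alone, as a neighbouring pair (CCATATTTGG at -82 and CCTTATATGG at -72), against 1.63% of all promoters. The ETS core CCGGAA occurred at -65 in Dusp14 and in 14.9% of promoters. None of the 9 windows held the AP-1 letters TGANTCA (7.81% of promoters), the EGR letters GCGTGGGCG (0.612%), the heat shock element (0.603%) or the ATF4 and C/EBP letters TGATGNAA (3.97%). A match is a description of the sequence only, and no binding was measured.

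With 4OHT, 5 of the 10 genes rose against untreated cells and 1 fell. Dusp1, Dusp2, Dusp4 and Dusp6 rose between 5.10-fold and 13.9-fold, Dusp5 was also called higher from a signal near background, Dusp7 fell, and the genes of the JNK and p38 enzymes and Dusp14 did not pass the test. Values throughout are log2 signals relative to the 75th percentile of the array. Each change is a log2 fold change between groups of 3 arrays ± its standard error (SE). The SE uses 1 spread per gene shared by all 4 groups, so it does not describe the groups compared alone. In limma p was adjusted over all genes (Benjamini-Hochberg), with calls at 0.05. Calls in this comparison were made for 28.5% of all genes tested, 14.7% higher and 13.8% lower. Among genes above background on all 12 arrays, which leaves Dusp5 out, 4 of 9 rose and 1 fell. With that filter 6849 of 20324 genes were called. The median change was 1.97 over the 10 genes and 0.05 over all genes tested. The median of the 10 lay midway between Dusp10 (1.59) and Dusp6 (2.35), and the value of Dusp10 came with 1 bright array, described below. With the bright spot left out Dusp10 changed by 0.39, which lowers that median. The arrays of 8 of the 10 genes did not overlap between 4OHT and untreated cells, as for 41.0% of all genes. The 8 include Dusp5, which was kept through its 4OHT groups alone.

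**Figure D1:**
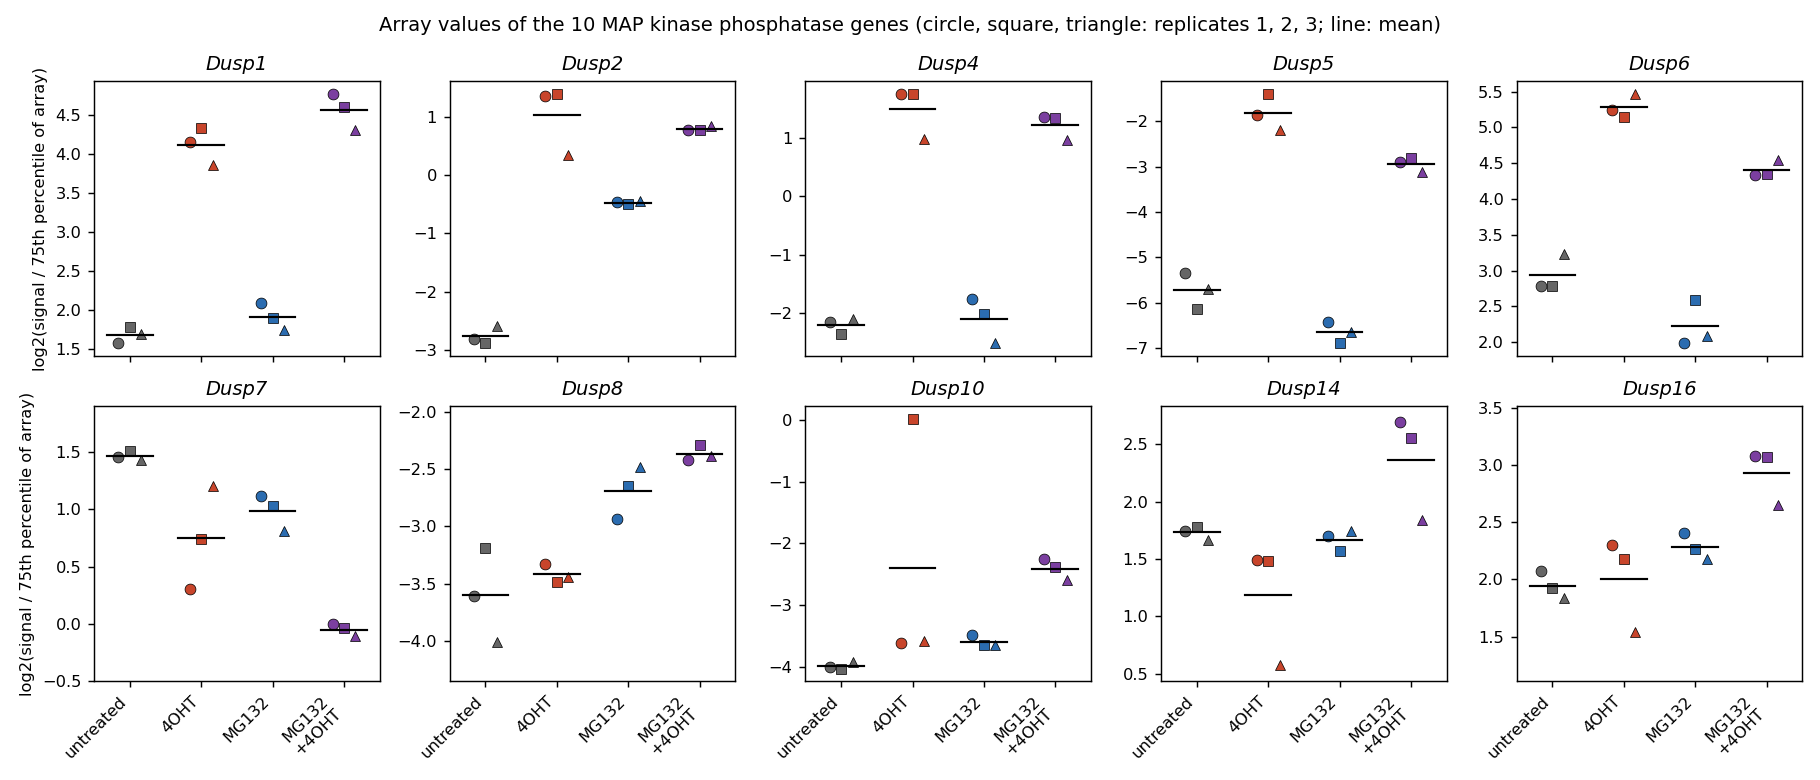
Log2 signal relative to the 75th percentile of each array (vertical axis, own scale per gene) for the 10 genes in the 4 groups, with circle, square and triangle for replicates 1, 2 and 3 and a line for the group mean. Dusp1, Dusp4, Dusp5 and Dusp6 stood high in both groups with 4OHT, Dusp2 stood high in every treated group, and Dusp10 had 1 high array, 4OHT replicate 2, at 0.02.

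Among the nuclear enzymes, Dusp1, an immediate-early gene whose product acts on p38, JNK and ERK, had log2 signals of 1.57, 1.78 and 1.69 on the untreated arrays and 4.16, 4.34 and 3.86 with 4OHT, in order of replicate. It rose 5.41-fold (2.44 ± 0.16, adjusted p = 3.18e-06), and the lowest 4OHT array stood more than 2 log2 units above the highest untreated array. Dusp2, first known from activated lymphocytes, went from -2.81, -2.89 and -2.59 to 1.35, 1.40 and 0.34, a rise of 13.9-fold (3.80 ± 0.23, adjusted p = 2.46e-06). The lowest of its 4OHT arrays was replicate 3, which still lay above all untreated arrays.

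Dusp4, whose product acts on ERK and JNK, had -2.16, -2.37 and -2.11 in untreated cells and 1.76, 1.74 and 0.99 with 4OHT. Its rise was 13.0-fold (3.70 ± 0.24, adjusted p = 3.55e-06), and replicate 3 was again the lowest 4OHT array. Dusp5, whose product is specific for ERK and holds it in the nucleus, had -5.35, -6.14 and -5.69 in untreated cells and -1.86, -1.39 and -2.20 with 4OHT. Its untreated signal was well above background on replicate 1 alone, and its 4OHT signal on all 3 arrays. The measured change was 3.91 ± 0.24 (adjusted p = 2.35e-06), from which no fold is given, and since the gene was kept through its 4OHT groups alone, its call adds nothing to the count for the other 9 genes. With normexp background correction, which compresses dim signals, the change was 1.56 and was still called.

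Among the cytoplasmic enzymes, Dusp6, a standard feedback gene of the FGF and ERK pathway, went from 2.78, 2.78 and 3.24 to 5.24, 5.15 and 5.47 with 4OHT. It rose 5.10-fold (2.35 ± 0.18, adjusted p = 1.03e-05), with no overlap between the groups. Dusp7, its close relative, changed in the other direction, from 1.46, 1.51 and 1.43 to 0.30, 0.74 and 1.21. It fell by 0.72 log2 units, with an SE of 0.19 (adjusted p = 0.0162), and the 3 4OHT arrays spread over 0.90 log2 units while the untreated arrays spread over 0.08. The call on Dusp7 was lost with only the 6 arrays compared (adjusted p = 0.0881), within slide 1 (0.0521) and without untreated replicate 2 (0.0534).

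The genes of the JNK and p38 enzymes showed no called change. Dusp8 had -3.61, -3.19 and -4.01 in untreated cells and -3.33, -3.48 and -3.44 with 4OHT, and its change was 0.18 with a 95% confidence interval from -0.24 to 0.60. Dusp16 changed by 0.06 (interval from -0.37 to 0.50), from 2.07, 1.93 and 1.83 to 2.30, 2.18 and 1.54. For both genes the groups overlapped. Dusp14 had 1.74, 1.78 and 1.67 in untreated cells and 1.49, 1.48 and 0.57 with 4OHT, so all 4OHT arrays were lower, but the change of -0.55 ± 0.27 did not pass (adjusted p = 0.155). Its other probe ran in parallel, from 0.29, 0.21 and 0.32 to 0.05, -0.10 and -1.04.

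Dusp10 rested on 1 array. Its log2 signals were -4.01, -4.03 and -3.92 in untreated cells and -3.62, 0.02 and -3.58 with 4OHT, a change of 1.59 ± 0.76 that did not pass (adjusted p = 0.153). On 4OHT replicate 2 its processed intensity was 453, against 24.6 to 85.3 on the other 11 arrays. The 26 ordinarily dim probes within 3 rows and columns of it had a median intensity of 448 on that array and of 3.20 to 11 on the others, so the whole neighbourhood was bright there. Over the array, 866 of 59305 spots (1.46%) lay in such bright patches on 4OHT replicate 2, 596 on 4OHT replicate 3, 119 on MG132 replicate 1 and 0 to 40 on the others. No other probe of the 10 genes lay in one. With the spots in bright patches left out, an alternative added after the data were seen, Dusp10 rose with 4OHT by 0.39 ± 0.12 (adjusted p = 0.0353), and 7 of the 10 genes were called in place of 6. It was also called without 4OHT replicate 2 (0.39, adjusted p = 0.0399) and, with the bright spot kept, with normexp (1.02) and array weights (3.06).

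**Figure D2:**
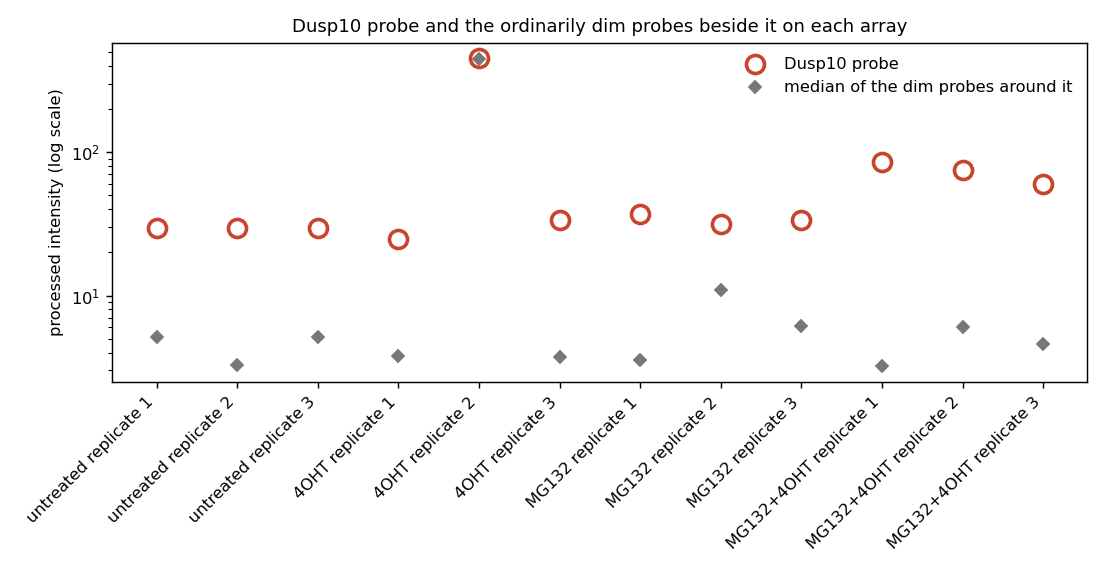
Processed intensity (log scale) of the Dusp10 probe (open circles) and the median of the 26 ordinarily dim probes around it (diamonds) on each of the 12 arrays. The symbols coincide on 4OHT replicate 2, at 453 and 448, while the neighbours had at most 11 on every other array.

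The other genes of the pathway are given here from lists of genes with a known role. The lists were chosen with earlier results of these data known, and the genes named are members with large changes. Of 17 genes of ERK output and feedback, 13 rose with 4OHT and 0 fell in limma, also at an unadjusted p under 0.05. Among them were Phlda1 (5.38 ± 0.26), the AP-1 subunit gene Fosl1 (5.04 ± 0.34), the receptor pathway inhibitor gene Spry4 (3.35 ± 0.21) and the transcription factor gene Egr1 (3.11 ± 0.21). Their median change was 1.63. The RAS to ERK cascade itself had 4 risers and 2 fallers among 20 genes (median 0.08), among them the kinase gene Braf (1.15 ± 0.17) and the receptor gene Fgfr1 (-1.02 ± 0.16). The JNK and p38 cascade had 4 of each among 15 genes (median 0.05). Of 6 other phosphatase genes acting on ERK, 4 rose and 0 fell (1 at an unadjusted p under 0.05), including Ptpn7 (2.81 ± 0.43), which encodes a tyrosine phosphatase of ERK and p38.

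Among 13 measured DUSP genes outside the set, 4OHT raised 4 and lowered 3 (median change -0.19). Dusp9, which encodes the other cytoplasmic enzyme with a preference for ERK, had 1.83, 1.73 and 1.73 in untreated cells and 1.44, 1.35 and 1.38 with 4OHT. It fell by 0.37 log2 units, with an SE of 0.08 (adjusted p = 0.0046), so of the 3 genes for cytoplasmic ERK enzymes 1 rose and 2 fell. Dusp26, an atypical enzyme gene, had a measured change of -1.09 ± 0.18, and Dusp18 changed by 1.22 ± 0.25. With 4OHT the Dusp26 probe was well above background on 1 of 3 arrays, so the size of its fall is uncertain.

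MG132 alone, against untreated cells, raised 2 of the 10 genes and lowered 2. Dusp2 rose 4.89-fold and Dusp8 1.88-fold, while Dusp6 was lower. Dusp5 was also called lower, but its signals in both groups were at or near background and the call was lost with normexp. Calls were made for 43.0% of all genes tested (24.5% higher, 18.4% lower), so 4 of 10 is close to the background share. The median change was 0.17 over the 10 genes and 0.08 over all genes.

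Dusp2 stood at -0.47, -0.50 and -0.45 with MG132, above all untreated arrays by at least 2 log2 units and below all arrays of both 4OHT groups. The change was 2.29 ± 0.23 (adjusted p = 4.13e-05), and within slide 1, without MG132 replicate 3, it was 2.28 (adjusted p = 0.00244). Dusp8 went to -2.93, -2.65 and -2.48, a change of 0.91 ± 0.19 (adjusted p = 0.00302; 0.81 within slide 1, adjusted p = 0.0367). Its other probe was not well above background on any untreated array and was so on 2 of 3 MG132 arrays, so no fold is given for it. The measured change of that probe over all 3 MG132 arrays was 1.14 ± 0.31 (limma on all probes, adjusted p = 0.014). With normexp the change of the brighter probe was 0.47 and was still called. The dimmer probe was kept only through the group with both compounds, where it was highest, so its change is no separate support. For the brighter probe the arrays of both groups were apart.

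Dusp6 had 1.98, 2.59 and 2.09 with MG132, below every untreated array, and fell by 0.71 log2 units, with an SE of 0.18 (adjusted p = 0.00967). Within slide 1 that call was lost (-0.65, adjusted p = 0.0716). Dusp5 had -6.42, -6.89 and -6.64 and a called change of -0.93 ± 0.24 (adjusted p = 0.0105), but with no MG132 array and 1 untreated array well above background no fold can be given. Its change was -0.02 with normexp background correction (adjusted p = 0.912) and was not called within slide 1 (adjusted p = 0.0592).

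Dusp7, at 1.11, 1.03 and 0.81, lay below all untreated arrays with a change of -0.48 ± 0.19 that did not pass (adjusted p = 0.0615). It passed under 8 of 28 alternatives, among them only the 6 arrays compared (adjusted p = 0.0111), without 4OHT replicate 1 (0.0114) and without 4OHT replicate 3 (0.0109), since 1 spread per gene was shared by all groups. Dusp1 (2.09, 1.90 and 1.74, change 0.23), Dusp4 (-1.75, -2.02 and -2.52, change 0.11) and Dusp14 (1.70, 1.57 and 1.74, change -0.06) overlapped with their untreated arrays. Dusp16 (2.40, 2.26 and 2.17) did not overlap with them, but its change of 0.34 ± 0.19 did not pass (adjusted p = 0.195), unless only the arrays compared (0.042) or array weights (0.0248) were used. Dusp10 (-3.48, -3.65 and -3.65) changed by 0.39 ± 0.76, and with bright patches left out by 0.39 ± 0.11 (adjusted p = 0.0144). In all, the arrays of 7 of the 10 genes did not overlap between MG132 and untreated cells, as for 59.6% of all genes.

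All 10 genes of a stress response list rose with MG132, among them the heat shock gene Hspa1a (4.73 ± 0.15), Atf3 (4.56 ± 0.30), which encodes a factor of the ATF family, and Ddit3 (3.29 ± 0.15). Their median change was 2.41. Of the 17 ERK output and feedback genes, 3 rose and 8 fell (median -0.61). Fosl1 was among those that rose (4.34 ± 0.34) and Egr1 (-2.95 ± 0.21) and Spry4 (-2.45 ± 0.21) among those that fell, like Dusp6. In the RAS to ERK cascade 4 of 20 genes rose and 5 fell, with the ERK1 gene Mapk3 at -0.95 ± 0.12. In the JNK and p38 cascade 5 of 15 rose and 2 fell, with Mapkapk3, which encodes a kinase downstream of p38, at 1.64 ± 0.10. Of the 13 other DUSP genes 4 rose and 1 fell. Dusp13 had the largest measured change of these (4.80 ± 0.36), from a signal near background. That probe was well above background on 1 untreated array and was kept only through the groups with MG132, so the size of the change is uncertain. The other kept Dusp13 probe went from a mean of -5.55 (SD 0.96) in untreated cells to -3.28 (SD 0.46) with MG132.

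**Figure D3:**
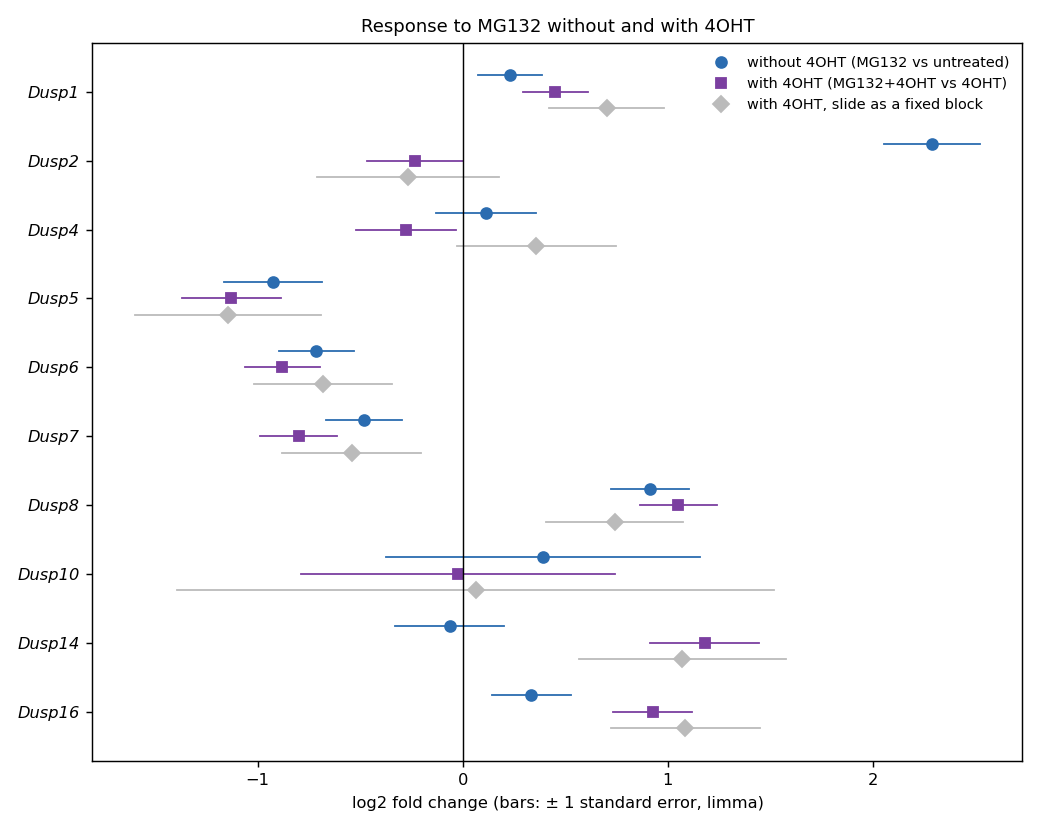
Log2 fold change ± 1 SE (limma; horizontal axis) of the 10 genes for MG132 against untreated cells (circles), for both compounds against 4OHT alone (squares) and for the latter with slide as a fixed block (grey diamonds, with wider bars). Dusp2 was raised by MG132 alone (2.29) but not against 4OHT alone (-0.23). Dusp8 was higher in both comparisons (0.91 and 1.05) and Dusp6 was lower in both. Dusp5 was also lower in both, with its untreated and MG132 signals at or near background.

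In cells with MG132, 4OHT raised 6 of the 10 genes and lowered 1. Dusp1, Dusp2, Dusp4, Dusp5 and Dusp6 rose again, joined by Dusp16, and Dusp7 fell. Calls were made for 26.2% of all genes tested (13.2% higher, 13.0% lower), and the median change was 1.23 over the 10 genes and 0.06 over all genes. For all 10 genes the arrays of the groups did not overlap, which was so for 49.9% of all genes. Dusp5 was kept through its 4OHT groups alone, so its call and its lack of overlap add nothing here. Among genes above background on all 12 arrays, which leaves Dusp5 out, 5 of 9 rose and 1 fell. With that filter 6608 of 20324 genes were called.

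Dusp1 reached 4.78, 4.61 and 4.31 with both compounds, a rise of 6.31-fold over MG132 alone (2.66 ± 0.16, adjusted p = 9.55e-06). Dusp4 reached 1.35, 1.34 and 0.96, a rise of 9.95-fold (3.31 ± 0.24, adjusted p = 2.67e-05). Dusp6 reached 4.33, 4.34 and 4.54, a rise of 4.55-fold (2.18 ± 0.18, adjusted p = 4.74e-05). The lowest array with both compounds stood above the highest MG132 array by more than 1 log2 unit in each of these genes.

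Dusp5 had -2.90, -2.81 and -3.12 with both compounds, and since its MG132 arrays were not well above background the rise is given as at least 4.75-fold (change 3.71 ± 0.24, adjusted p = 1.33e-05; 0.94 with normexp, still called). Here the lower bound sets the mean of the bright arrays against, per dim array, whichever is higher, the array's dimmest signal above background or that of the probe. Dusp2 had 0.77, 0.78 and 0.85, a rise of 2.42-fold over MG132 alone (1.27 ± 0.23, adjusted p = 0.00353). Its 3 arrays with both compounds lay within the range of the 4OHT arrays. The rise of Dusp2 missed the threshold with slide as a block (1.25 ± 0.35, adjusted p = 0.0522). Slide 2 holds 1 MG132 array, replicate 3, so no result is drawn from slide 2 alone. With slide as a block the change also rests on that MG132 array, and only the spread comes from all groups.

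Dusp7 was at 0.00, -0.04 and -0.11 with both compounds, and fell by 1.03 log2 units against MG132 alone, with an SE of 0.19 (adjusted p = 0.00328). With slide as a block its change was -0.86 (adjusted p = 0.074). Dusp16 reached 3.08, 3.07 and 2.65, a change of 0.65 ± 0.19 (adjusted p = 0.0329), and this call was lost without any 1 of MG132 replicates 1, 2 and 3 or of the replicates 1 and 2 with both compounds (adjusted p from 0.0579 to 0.109). It was also lost with slide as a block (0.13), with median centring (0.0512) and with no filter (0.0732). With slide as a block 4 of the 10 genes were called, Dusp1, Dusp4, Dusp5 and Dusp6, with changes of 2.82, 3.74, 3.70 and 2.32. Over all genes 2951 of 26841 were called with that block. All changes given here with that block set the 3 arrays with both compounds against MG132 replicate 3 alone.

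Dusp14 had 2.70, 2.55 and 1.84 with both compounds, above all MG132 arrays, and a change of 0.70 ± 0.27 that did not pass (adjusted p = 0.0803). It passed without replicate 3 of the group with both compounds (0.96, adjusted p = 0.0257) and without 4OHT replicate 3 (adjusted p = 0.0238). The other Dusp14 probe had 1.08, 0.99 and 0.13 against 0.13, -0.05 and 0.17, so its groups overlapped. Dusp8 reached -2.43, -2.29 and -2.39, a change of 0.32 with an interval from -0.10 to 0.74. Dusp10 reached -2.26, -2.39 and -2.59 against -3.48, -3.65 and -3.65, a change of 1.18 ± 0.76 (adjusted p = 0.283). With bright patches left out, the same change of Dusp10 had an SE of 0.11 and an adjusted p of 0.000118, and 8 of the 10 genes were called.

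Of the ERK output and feedback genes 14 of 17 rose with 4OHT in cells with MG132 and 0 fell in limma, also at an unadjusted p under 0.05, with a median of 1.22. Egr1 rose by 8.33 ± 0.21, Spry4 by 5.35 ± 0.21, Phlda1 by 4.16 ± 0.26 and Fos by 3.44 ± 0.20. In the RAS to ERK cascade 3 of 20 genes rose and 3 fell, and in the JNK and p38 cascade 3 of 15 rose and 3 fell. Of the 13 other DUSP genes 1 rose and 4 fell, and Dusp9 fell as it did without MG132, by 0.46 log2 units, with an SE of 0.08 (adjusted p = 0.0021). Among the stress response genes 7 of 10 rose and 1 fell.

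Whether MG132 altered the response to 4OHT was asked with the difference of both responses. Dusp2 was the gene of the 10 that was called: it rose by 3.80 without MG132 and by 1.27 with it, a difference of -2.52 ± 0.33 (95% confidence interval from -3.26 to -1.79, adjusted p = 0.00241). A difference was called for 6.51% of all genes tested (2.63% higher, 3.88% lower). The untreated arrays entered this difference at 0 h and the MG132 arrays at 6 h, so the time of the control differed as well.

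The levels of Dusp2 rose in the order of untreated (mean -2.77, SD 0.15), MG132 (-0.48, SD 0.03), both compounds (0.80, SD 0.04) and 4OHT (1.03, SD 0.60), and the last 2 groups did not differ beyond their spread (-0.23 ± 0.23, adjusted p = 0.436). Without 4OHT replicate 3 that last comparison was called (-0.58, adjusted p = 0.00137). The smaller rise with MG132 thus went with a higher starting level, and the end levels were not called different. The difference of responses was called under all 26 alternatives run on it, with values from -2.87 to -1.92 and adjusted p from 2.13e-05 to 0.038. With slide as a block it was -2.55 ± 0.43 (adjusted p = 0.0187), where the response with MG132 again rests on MG132 replicate 3 alone.

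**Figure D4:**
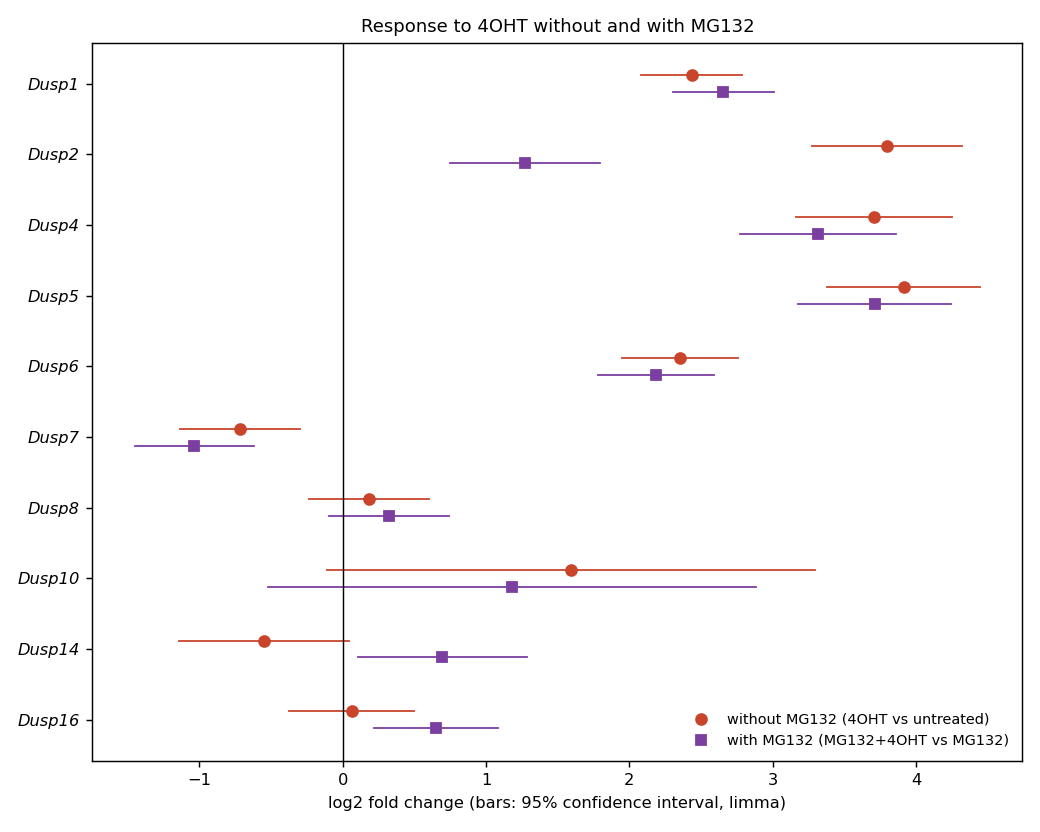
Log2 fold change with its 95% confidence interval (limma) with 4OHT, without MG132 (circles, against untreated cells) and with MG132 (squares, against MG132 alone), for the 10 genes. The intervals of Dusp2 did not overlap (3.80 and 1.27), those of Dusp1, Dusp4 and Dusp6 did, the responses of Dusp5 start from signals near or at background, and the wide interval of Dusp10 came with its 1 bright array.

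For the other inducible genes the interval of the difference shows how large a change of response could have been missed. It ran from -0.28 to 0.72 for Dusp1, from -1.16 to 0.38 for Dusp4 and from -0.74 to 0.41 for Dusp6. Each of these 3 intervals includes 0, and that of Dusp4 also a response smaller by more than 1 log2 unit. For Dusp5 the size of a missed difference cannot be given, since 1 untreated array and no MG132 array were well above background. Its measured difference was -0.20 ± 0.34 (adjusted p = 0.791), and -0.62 ± 0.15 with normexp, which was called (adjusted p = 0.022). For Dusp7 the interval was -0.91 to 0.27 and for Dusp8 -0.45 to 0.73.

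Dusp14 had a difference of 1.25 ± 0.38 (interval from 0.41 to 2.08), from -0.55 without MG132 to 0.70 with it, which did not pass after adjustment (adjusted p = 0.0824). It was called with normexp background correction, with array weights and without replicate 3 of the group with both compounds (1.51, adjusted p = 0.0336). Dusp16 had a difference of 0.59 ± 0.28 (adjusted p = 0.257). Dusp10 had -0.41 ± 1.08 (adjusted p = 0.872), and 0.79 ± 0.16 with bright patches left out (adjusted p = 0.0185). Without 4OHT replicate 2 it was likewise 0.79 (adjusted p = 0.0223), so the sign of the Dusp10 value was set by that array.

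Among the ERK output and feedback genes the difference was called in 3 of 17 upward and in 3 downward. Egr1 (5.22 ± 0.30), Spry4 and Fos (1.39 ± 0.28) responded more with MG132, and Fosl1 (-2.33 ± 0.48), Myc (-1.18 ± 0.26) and Il17rd (-0.74 ± 0.16) less. MG132 alone raised Fosl1, as it did Dusp2, but lowered Myc (-1.30 ± 0.18) and Il17rd (-0.78 ± 0.12). In limma none of the 13 other DUSP genes was called in this difference, and 2 had an unadjusted p under 0.05.

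Set against 4OHT alone, the addition of MG132 raised 4 of the 10 genes and lowered 3, where 49.9% of all genes were called (28.3% higher, 21.6% lower). The groups lay on different slides, and with slide as a block 0 of the 10 genes were called. This block is estimated from the MG132 group, the one group on both slides. It sets MG132 replicate 3 against replicates 1 and 2, so it also takes in what replicate 3 shared across groups. With slide and replicate block together, values moved either way, for Dusp6 from -0.68 to -0.37 and for Dusp5 from -1.14 to -1.40. Among all genes the slide block left 5315 calls in place of 13387, and compound and slide cannot be told apart fully here. At an unadjusted p under 0.05 in limma, 3 of the 10 passed with that block, and with slide as a random block 7 were called.

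The genes higher with both compounds were Dusp8, Dusp14, Dusp16 and Dusp1. Dusp8 was 2.07-fold higher (1.05 ± 0.19, adjusted p = 0.0011), and changed by 0.74 with slide as a block (adjusted p = 0.155). Its dimmer probe was at least 1.80-fold higher, but was kept only through the group with both compounds and adds no support. Dusp14 was 2.27-fold higher (1.18 ± 0.27, adjusted p = 0.00421) and Dusp16 1.90-fold higher (0.93 ± 0.19, adjusted p = 0.00288). In these 3 genes no array of the groups overlapped. Dusp1 was higher by 0.45 ± 0.16 (adjusted p = 0.036) with overlapping arrays, and that call was lost with median centring (0.23, adjusted p = 0.344), normexp (0.0561), no filter (0.0724), only the arrays compared (0.098) and without any 1 of 4OHT replicates 1 and 3, MG132 replicate 2 or the replicates 1 and 2 with both compounds (adjusted p from 0.0504 to 0.132).

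The genes lower with both compounds were the ERK enzymes Dusp5, Dusp6 and Dusp7. Dusp5 changed by -1.13 ± 0.24 (adjusted p = 0.00308), Dusp6 by -0.88 ± 0.18 (adjusted p = 0.00264) and Dusp7 by -0.80 ± 0.19 (adjusted p = 0.00528). With slide as a block these changes were -1.14, -0.68 and -0.54, with adjusted p of 0.112, 0.189 and 0.301. Dusp10 stood at -0.02 ± 0.76, and at 1.18 ± 0.12 (adjusted p = 4.55e-05) with bright patches left out. The arrays of 6 of the 10 genes did not overlap between these groups, as for 57.4% of all genes.

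Against untreated cells, both compounds together raised 7 of the 10 genes and lowered Dusp7 (-1.51 ± 0.19, adjusted p = 8.35e-05). Of all genes 55.6% were called (33.2% higher, 22.4% lower). Dusp5 was among the 7 and was kept through its 4OHT groups alone. With genes above background on all 12 arrays, which leaves Dusp5 out, 6 of 9 rose and 1 fell. With that filter 12421 of 20324 genes were called. The rises ran from 0.99 ± 0.19 for Dusp16 (adjusted p = 0.00166) to 3.56 ± 0.23 for Dusp2 (adjusted p = 1.59e-06). Dusp8 rose by 1.23 ± 0.19 (adjusted p = 0.00033), and with slide as a block by 0.92 (adjusted p = 0.0726). Its dimmer probe was at least 3.15-fold higher, which again adds no support, as it was kept only through this group. Dusp14 (0.63 ± 0.27, adjusted p = 0.0664) and Dusp10 (1.57 ± 0.76, adjusted p = 0.106) did not pass, and with bright patches left out Dusp10 rose by 1.57 ± 0.11 (adjusted p = 3.38e-06). The arrays of all 10 genes did not overlap, as for 72.0% of all genes.

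The order of the group means differed between genes, also within a class of enzymes. Dusp4 had both 4OHT groups at the top (1.50, SD 0.44, and 1.22, SD 0.22, with both compounds) and untreated and MG132 cells at the bottom (-2.21, SD 0.14, and -2.10, SD 0.39), with no called difference within either pair. Dusp6 fell over the 4 groups, from 4OHT (5.29, SD 0.17) to both compounds (4.41, SD 0.12), untreated (2.93, SD 0.26) and MG132 (2.22, SD 0.33). Its first and last differences in this order were not called under every alternative, as given above. Dusp5 had the same order, -1.81 (SD 0.41), -2.94 (SD 0.16), -5.73 (SD 0.39) and -6.65 (SD 0.24), its last 2 at or near background. Dusp7 ran from untreated (1.47, SD 0.04) through MG132 (0.98, SD 0.15) and 4OHT (0.75, SD 0.45) to both compounds (-0.05, SD 0.05). Its step from untreated to MG132 cells was not called, and MG132 and 4OHT cells were not tested against each other. Between those last groups the arrays of 7 of the 10 genes did not overlap, as for 54.7% of all genes.

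Dusp8 was ordered by MG132, from untreated (-3.60, SD 0.41) and 4OHT (-3.42, SD 0.08) to MG132 (-2.69, SD 0.23) and both compounds (-2.37, SD 0.07), with no called difference within either pair. Dusp16 had its highest mean with both compounds (2.93, SD 0.25), above MG132 (2.28, SD 0.11), 4OHT (2.01, SD 0.41) and untreated cells (1.94, SD 0.12), and neither MG132 nor 4OHT alone was called against untreated cells. Dusp14 likewise had its highest mean with both compounds (2.36, SD 0.46), and 4OHT gave its lowest (1.18, SD 0.53).

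Across the 12 arrays, which share their 4 groups, Dusp1 and Dusp4 had a Pearson correlation of 0.979, Dusp5 and Dusp6 of 0.967, and Dusp7 and Dusp16 of -0.834. The genes most like each member by this correlation were Ankrd66, Plaur and Tnfrsf12a for Dusp1 (0.996, 0.995 and 0.993), Vgf, B3galt5 and Procr for Dusp2, Egr3, Reep3 and Plaur for Dusp4, and Adam26b, Shb and Slc38a4 for Dusp5. For Dusp6 they were Noct, Cdk17 and Nlrc4, for Dusp7 Izumo4, Siae and Pnkd, and for Dusp8 Neb, Rps23rg1 and Cdk13. Fgfrl1, Epc2 and Ptbp3 were nearest to Dusp14, and Brsk1, Slf1 and Dnajb9 to Dusp16. P2ry10b, Rims1 and Prelid3b were nearest to Dusp10, a likeness that includes its bright value on 4OHT replicate 2. These correlations describe the arrays and carry no test.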

How the data were processed

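Per the labels' protocols, total RNA of 12 samples was made into cRNA, labelled with Cy3 and put on mouse arrays of Agilent. The processed intensity that the authors deposited for each array is background-subtracted and detrended, per the file headers, and not scaled between arrays. Their series-wide intensity values equalled it (largest difference 0) and were run as an alternative.

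Control spots (3671 of 62976) and outlier spots were dropped, spots of a probe were averaged (56605 probes), and log2 intensity minus the log2 of the array's 75th percentile (302 to 481 intensity units) was used. Accessions were matched to RefSeq symbols (GRCm38.p6), which named 32994 probes (58.3%). A probe was kept if 1 or more groups had it well above background throughout, with 1 probe per gene, the brightest on average. limma 3.58.1 (R 4.3.3) was fitted with group means over all 12 arrays (8 residual degrees of freedom) for 6 comparisons. The labels name no separate cultures for the biological replicates, so the spread behind each p-value may be partly technical. Precision is limited by the number of arrays. An exact test on 3 against 3 arrays cannot go below 0.1 and was not run.

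The 10 genes and the lists of other genes were chosen with earlier results of these data known, and no list was tested as a set. All 10 genes with all their probes are named. Other genes named are list members with large changes, or those nearest by correlation, and were picked after their values were seen. Bright patches are spots whose ordinarily dim neighbours (at least 5, under 50 intensity units) within 3 rows and columns had a median log2 excess over 2. Alternatives were normexp background correction (offset 50, on median spot signals), quantile normalization, median centring, other filters, the mean over probes, array weights, a variance trend, slide and replicate blocks, arrays within a slide and leaving out each array. The method was tested on simulated data.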

Additional observations from a re-analysis of the deposited data

Results flagged for a closer look

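The response of Dusp2 to 4OHT differed between cells without and with MG132, by -2.52 ± 0.33 on the log2 scale in limma's test of the difference itself. All 3 arrays per group took part: every MG132 array lay above every untreated array, and the arrays with both compounds lay within the range of the 4OHT arrays.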

How the results depend on the processing

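Of the values of single genes, 264 of 279 kept their direction and their side of the threshold for 4OHT against untreated cells, 258 of 279 for MG132 against untreated cells, 255 of 279 for both compounds against MG132, 238 of 269 against 4OHT, 253 of 269 against untreated cells, and 241 of 259 for the difference of responses. The cause of a change was not tested except where the alternative used fewer arrays or spots.

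The count of the 10 genes called moved by over 1.5 times in these cases. For MG132 against untreated cells it was 4, and became 7 with only the arrays compared and 2 within slide 1. For both compounds against MG132 it went from 7 to 4 with slide as a fixed block and to 4 with slide and replicate block together. Against 4OHT alone it went from 7 to 0 and 0 with the same blocks (limma; 3 and 2 genes at an unadjusted p under 0.05), and against untreated cells from 8 to 5 with slide and replicate block together. For the difference of responses it went from 1 to 3 with normexp, 3 with array weights, 2 with the replicate block and 2 with bright patches left out. Without 1 replicate the difference count was 1 to 2.

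By the criterion used (every same-numbered pair over 0.1), replicate numbers did not pair the samples: same-numbered arrays of different groups had correlations of deviations from -0.062 to 0.407 over 18 pairs. The 6 pairs of replicate 3 arrays all correlated positively (0.115 to 0.407), so replicate 3 deviated together across groups. Replicate 3 arrays correlated with other numbers at -0.292 to 0.00725, which partly follows from this, since deviations cancel out within a group. The labels name no batch for it. The replicate block called 2 genes in the difference (Dusp14, 1.25, adjusted p = 0.0442, joined Dusp2) and, for Dusp14, also both compounds against MG132 and against untreated cells (0.70 and 0.63). It changed no other call.

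These directions reversed. With median centring, against untreated cells, Dusp16 and Dusp8 took -0.13 and -0.013 with 4OHT, and Dusp1, Dusp16 and Dusp4 took -0.13, -0.026 and -0.25 with MG132. With quantile normalization Dusp16 took -0.0059 with 4OHT and Dusp4 -0.12 with MG132. Dusp8 with 4OHT took -0.18 as the mean over probes and -0.0696 with array weights. For both compounds against 4OHT, slide as a fixed block gave Dusp10 0.063 and Dusp4 0.36, and Dusp10 took 1.18 without bright patches. With slide and replicate block together, Dusp8 took -0.037 against MG132, Dusp4 0.026 against 4OHT and Dusp14 -0.075 against untreated cells. In the difference, Dusp10 took 0.79 without bright patches, Dusp4 and Dusp8 0.034 and -0.069 with slide as a fixed block, Dusp6 and Dusp8 0.17 and -0.22 with slide and replicate block together, and Dusp6 and Dusp8 0.067 and -0.061 with normexp. Leaving out 1 array gave ranges across 0: with 4OHT, -0.083 to 0.29 for Dusp16 and -0.023 to 0.39 for Dusp8; with MG132, -0.0595 to 0.33 for Dusp4; for both compounds against 4OHT, -0.63 to 1.18 for Dusp10; and for the difference, -1.02 to 0.79 for Dusp10, -0.39 to 0.011 for Dusp5, -0.32 to 0.0195 for Dusp6 and -0.0696 to 0.34 for Dusp8.

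Over all genes, calls with 4OHT went from 7657 to 5029 with only the arrays compared and to 14552 with no filter. With array weights both compounds against MG132 went from 7031 to 14505 and the difference from 1747 to 5738. Slide as a fixed block gave 2951, 5315, 6964 and 795 for the 4 comparisons with both compounds (from 7031, 13387, 14917 and 1747), slide and replicate block together 2300, 4815, 6043 and 816, and slide 2 alone, which has 1 MG132 array, 2134 against MG132. Without 1 replicate, calls were as low as 4543 against MG132 and 1048 in the difference. Median centring moved the median of all genes from 0.05 to -0.15 with 4OHT, 0.08 to -0.28 with MG132, 0.11 to -0.11 for both compounds against 4OHT and 0.19 to -0.23 against untreated cells. It turned the share of calls that were higher from 57.1% to 26.8% with MG132 and from 51.5% to 29.5% with 4OHT; with 4OHT this share was 71.8% with normexp and 75.5% with no filter, and quantile normalization gave 2971 higher against 4850 lower. The rises of Dusp1, Dusp2, Dusp4 and Dusp6 with 4OHT were called under every alternative run on them. Dusp5, Dusp8 and Dusp10 lay near background, where the signal limits the precision.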
